A study of Homo sapiens with 238 samples.

Results

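The clone αRes3 was compared with its parent, αMut1, by RNA-seq of polyadenylated RNA. Both are lines of K562, a human erythroleukemia line that expresses embryonic and fetal globin genes and keeps many features of an immature red cell. In αMut1, a single-cell clone, the G-quadruplex (G4) sequence of HS-40, the main enhancer of the α-globin genes, had been mutated with CRISPR-Cas9. αRes3 is a single-cell clone made from αMut1 cells by a second edit that placed an unrelated G4-forming sequence into HS-40. Both lines grew in RPMI1640 with 10% fetal bovine serum, without inducing agent. The members were taken from the sample titles, 4 libraries of αRes3 and 7 of αMut1, together 11 of the 62 RNA-seq libraries in the series. The unedited line αWT (8 libraries), the other mutant clone αMut2 (4) and the other rescue clones αRes1 (8), αRes2 (8) and αRes4 (4), made from αMut1 in the same way, share the fit and give levels beside those of αRes3. The libraries of an edited line are numbered samples of 1 clone, and the labels do not say that they are independent edits. Every p-value therefore measures the spread between samples within lines and not between clones. In the shared fit this spread was pooled over the 7 lines and includes differences between the sets of libraries described below.

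The α-like globin genes stand in the order HBZ, HBA2, HBA1 and HBQ1 near the end of the short arm of chromosome 16, and HS-40 lies upstream of them, inside an intron of NPRL3. HBZ encodes the embryonic ζ-globin chain, and HBA1 and HBA2 encode identical adult α-globin chains. An enhancer of this kind binds erythroid factors such as GATA1 and NF-E2 and contacts the globin promoters through a chromatin loop. A G4 is a 4-stranded DNA structure that G-rich sequence can fold into. The α-like chains pair with β-like chains, encoded on chromosome 11, and with heme to make hemoglobin.

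Total counts ranged from 12007645 to 22183345 in αRes3 and from 17701807 to 30174241 in αMut1. Levels are given in CPM, the counts of a library scaled to a common total, and changes as log2 fold changes of αRes3 over αMut1 with standard errors. Calls required a log2 change of more than 0.5 in either direction together with a Benjamini-Hochberg adjusted p under 0.05 in edgeR's quasi-likelihood test. All 13 K562 identity markers were at 1 CPM or more in both lines, and the summed level of this list, which includes the globin genes HBZ, HBE1, HBG1 and HBG2, was 5036 to 5499 CPM in αRes3 and 3202 to 4005 CPM in αMut1. The αMut1 libraries form 2 sets, numbers 1 to 4 and numbers 5 to 7, which differed from each other in 4181 genes, 22.9% of those tested. Reads of the pseudoautosomal genes, which lie on both sex chromosomes, were counted in all αRes3 libraries and in none of αMut1, so the reads of the lines appear to have been aligned to 2 different references. The reference and the line cannot be told apart in this comparison. In αRes1 and αRes2, numbers 1 to 4 had one reference and numbers 5 to 8 the other. Reference and number set therefore cannot be told apart within these lines, and levels in the subsets are given where they bear on a gene.

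RNA of the α-like globin genes was higher in αRes3 than in αMut1. HBA1 (ENSG00000206172, chr16:176680-177522, plus strand) was at 334, 336, 317 and 446 CPM in the αRes3 libraries. In αMut1 it was at 133, 116, 108, 119.5, 178, 149 and 175 CPM. The lowest αRes3 library lay above the highest αMut1 library, and αRes3 replicate 4 stood above the other 3. The means were 358 ± 59.3 (SD, n = 4) and 139.7 ± 28.5 (SD, n = 7) CPM, a 2.56-fold rise (log2 change 1.36 ± 0.20, adjusted p = 7.2e-07). A two-sided exact permutation test of the CPM values gave p = 0.00606, the smallest that 4 against 7 libraries allow, and 0.00909 after adjustment over the 9 globin genes tested. The rise was 1.59 against αMut1 numbers 1 to 4 and 1.10 against numbers 5 to 7 on the log2 scale.

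HBA2 (ENSG00000188536, chr16:172876-173710, plus strand), whose transcript is nearly identical to that of HBA1 so that reads can be split between the pair, was at 195, 222, 198 and 251 CPM in αRes3. It was at 56.4 to 69.4 in αMut1 libraries 1 to 4 and 99.4 to 107 in libraries 5 to 7. The log2 change was 1.42 ± 0.22, adjusted p = 2.18e-06. HBZ (ENSG00000130656, chr16:142728-154503, plus strand) was at 746, 834, 772 and 1018 CPM in αRes3 and had the largest change of the cluster, 1.67 ± 0.22, adjusted p = 9.03e-08. In αMut1 HBZ was at 195 to 312 (median 296) CPM, and the lines did not overlap. HBQ1, a little expressed α-like gene of unknown function, was at 16.0 to 16.6 CPM in αRes3, with 5.86 to 7.47 in αMut1 libraries 1 to 4 and 15.6 to 17.6 in libraries 5 to 7. It was not called (log2 change 0.55 ± 0.26, adjusted p = 0.107), and its αRes3 values were above the first αMut1 set and within the range of the second. HBM, the remaining member of the cluster, did not pass the filter on low counts.

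**Figure D1:**
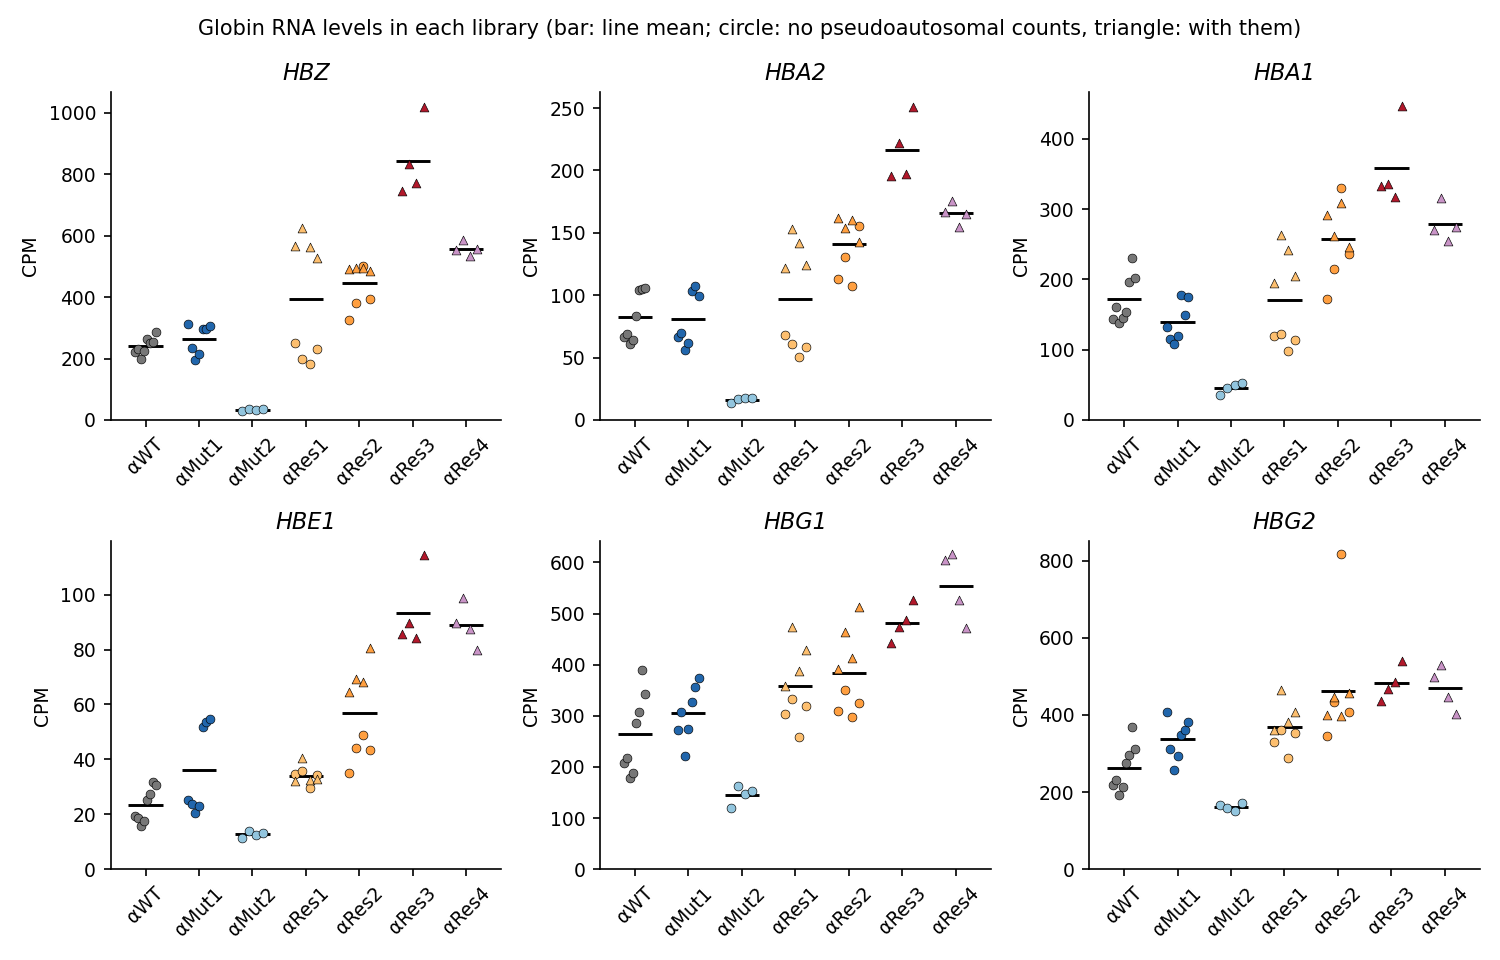
CPM (y axis, linear from 0) of the α-like genes HBZ, HBA2 and HBA1 and the β-like genes HBE1, HBG1 and HBG2 in each library of the 7 α-series lines. Circles are libraries without pseudoautosomal counts, triangles libraries with them, and bars the mean of a line; for HBZ and HBA2 the 4 αRes3 libraries lie above those of every other line, and for HBA1 they run from 317 to 446 CPM.

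Set beside the other lines, αRes3 had the highest mean HBA1 level of the 7. αWT was at 172 ± 33.7 (SD, n = 8) CPM and αMut2 at 45.6 ± 7.57 (SD, n = 4). αRes1 was at 170.1 ± 64.2 (SD, n = 8), αRes2 at 258 ± 51.9 (SD, n = 8) and αRes4 at 279 ± 25.9 (SD, n = 4). The highest αRes4 library, at 316 CPM, lay just below the lowest αRes3 library, and the αRes2 and αRes3 libraries overlapped. Levels of αRes1 moved with the reference and number set: HBA1 averaged 114 CPM in numbers 1 to 4 and 226 in numbers 5 to 8. The same averages in αRes2 were 238 and 277 CPM. For HBZ they were 216 and 570.1 CPM in αRes1 and 400.4 and 491 in αRes2. With terms for reference and number set in the fit, an alternative chosen after the data were seen and informed by the lines that have both, the HBA1 change was 1.40 ± 0.25.

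The embryonic and fetal β-like genes were higher as well, by less than HBZ. HBE1 (ENSG00000213931), which encodes embryonic ε-globin, was at 85.6, 89.6, 84.2 and 114 CPM in αRes3. It was at 20.5 to 25.3 in αMut1 libraries 1 to 4 and 51.7 to 54.6 in libraries 5 to 7, so every αRes3 library was above both sets. Its log2 change was 1.37 ± 0.22, adjusted p = 3.75e-06. The fetal γ-globin genes HBG1 and HBG2, also near-identical in sequence, rose by 0.66 ± 0.17 (adjusted p = 0.00244) and 0.52 ± 0.16 (adjusted p = 0.0112). HBG1 averaged 482 ± 34.3 (SD, n = 4) CPM in αRes3 and 305 ± 53.1 (SD, n = 7) in αMut1, and HBG2 averaged 482 ± 43.2 and 337 ± 52.8. The annotated models of HBE1 (chr11:5268345-5505652, minus strand) and HBG2 (chr11:5253188-5505605, minus strand) overlap on the same strand, so reads of this cluster may be split among its genes. Neither γ gene was called against αMut1 numbers 5 to 7 (log2 changes 0.45 and 0.41).

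The δ- and β-globin genes were not called higher. HBD, encoding δ-globin, averaged 56.4 ± 1.51 (SD, n = 4) CPM in αRes3 and 59.3 ± 8.58 (SD, n = 7) in αMut1, and the lines overlapped (log2 change -0.07 ± 0.29, adjusted p = 0.885). HBB, encoding adult β-globin, was low in both lines, at 0.419 to 0.891 and 0.798 to 1.97 CPM. edgeR did not call HBB (log2 change -1.02 ± 0.51, adjusted p = 0.124), whereas the exact permutation test of CPM gave p = 0.0121 (0.0156 after adjustment over the globin genes). In that test the 6 genes HBZ, HBA2, HBA1, HBE1, HBG1 and HBG2 each had the smallest p possible.

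Summed over the tested genes, α-like RNA was at 1433 ± 205 CPM in αRes3 (SD, n = 4) and 496 ± 96.9 in αMut1 (n = 7). β-like RNA was at 1115 ± 88.9 and 738 ± 117 CPM. The ratio of α-like to β-like counts was 1.17 to 1.40 in αRes3 and 0.605 to 0.747 in αMut1. In αWT it was 0.758 to 1.03 and in αRes4 0.733 to 0.936, so the αRes3 ratios lay above those of the other lines, the nearest being αRes1 with up to 1.07 and αRes2 with up to 1.06. HBZ made up 57.8% to 59.2% of α-like counts in αRes3 and 49.9% to 60.2% in αMut1, ranges that overlap. These sums are descriptions and were not tested.

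Of the genes on either side of the α-globin cluster, NPRL3 and RHBDF1 on the telomeric side and FAM234A on the centromeric side rose. Over all genes tested, 20.5% were called, 9.62% higher and 10.9% lower. Of 13 flanking genes tested, 3 were higher, 0 lower and 10 not called, with a median log2 change of 0.09 against -0.00059 over all genes. NPRL3 (ENSG00000103148, chr16:84271-138677, minus strand), a subunit of the GATOR1 complex that restrains mTORC1 and the host of HS-40, was at 170.5, 173, 178 and 183 CPM in αRes3 and 71.4 to 80.7 in αMut1. Its log2 change (1.22 ± 0.15, adjusted p = 1.14e-08) was of similar size against αMut1 numbers 1 to 4 (1.21) and 5 to 7 (1.23). αWT was at 117 ± 9.15 (SD, n = 8) CPM and αRes4 at 118 ± 9.72 (SD, n = 4), both below αRes3. NPRL3 also differed with reference and number set, with means of 58.0 and 107 CPM in αRes1 and 70.4 and 95.8 in αRes2. With the terms for reference and number set its change was 0.66 ± 0.13.

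RHBDF1 (ENSG00000007384, chr16:58059-76355, minus strand), an inactive rhomboid protein, was at 15.9, 14.5, 13.4 and 13.6 CPM in αRes3. It was at 2.65 to 3.46 in αMut1 libraries 1 to 4 and 6.89 to 7.80 in libraries 5 to 7, and its log2 change was 1.55 ± 0.34, adjusted p = 0.000504. Against numbers 5 to 7 alone it was not called (0.96 ± 0.39). MPG, the DNA glycosylase gene between RHBDF1 and NPRL3, lies on the opposite strand and overlaps the end of NPRL3. MPG was not called (0.09 ± 0.16, adjusted p = 0.728). On the other side, FAM234A rose by 0.51 ± 0.10 (adjusted p = 0.000124), with αRes3 at 93.6 to 97.0 and αMut1 at 61.2 to 73.9 CPM. The FAM234A change is close to the fold limit and fell below it against numbers 5 to 7 alone (0.39). LUC7L, which lies between HBQ1 and FAM234A, had a log2 change of -0.19 ± 0.10, adjusted p = 0.144. PGAP6 and RAB11FIP3 passed the adjusted p but not the fold limit, at 0.43 ± 0.14, adjusted p = 0.0134 and 0.34 ± 0.12, adjusted p = 0.0235. The other 6, POLR3K, SNRNP25, AXIN1, MRPL28, NME4 and DECR2, had log2 changes from -0.06 to 0.30. All 6 lay above 0 against αMut1 numbers 1 to 4 and below 0 against numbers 5 to 7.

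**Figure D2:**
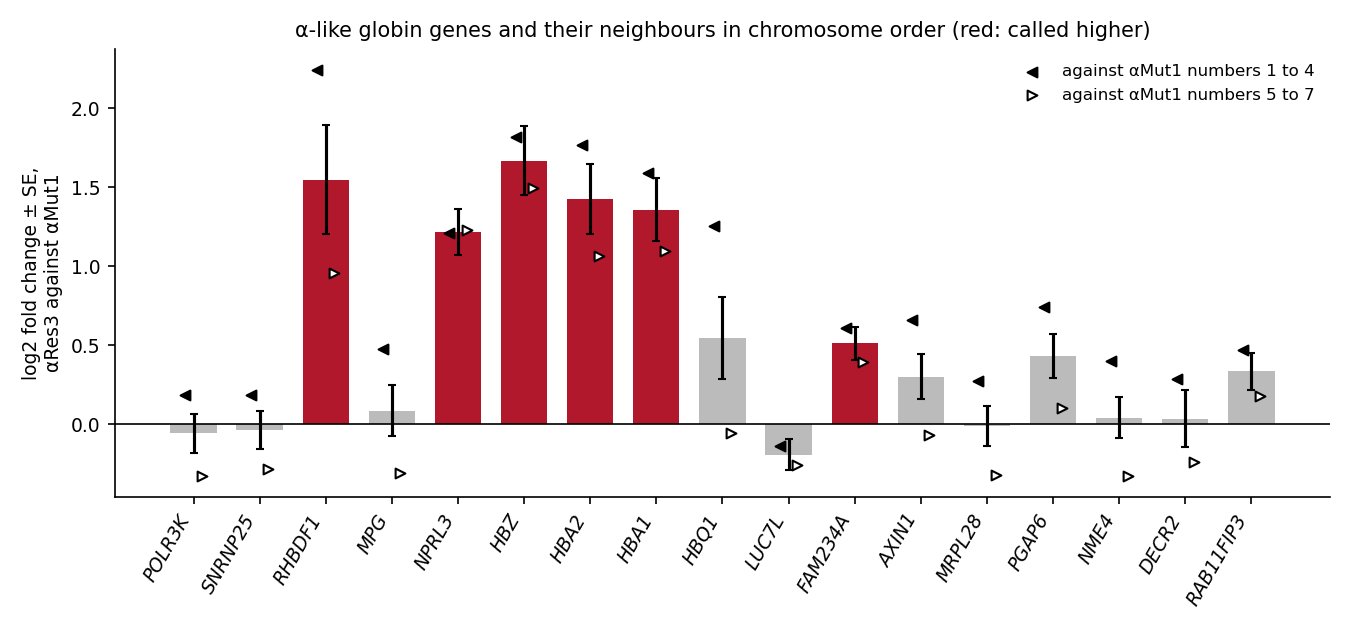
Log2 fold change of αRes3 over αMut1 (y axis, bars with standard errors) for the tested α-like globin genes and their neighbours in chromosome order (x axis); red bars are called higher, grey bars not called. Triangles give the change against αMut1 numbers 1 to 4 (filled) and 5 to 7 (open); NPRL3 is 1.21 and 1.23, while most uncalled neighbours fall on both sides of 0.

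The promoter windows of both telomeric neighbours that rose are shown, since their RNA, like that of HBZ, HBA2 and HBA1, was higher in αRes3 than in αMut1. They run from 250 bases before to 50 bases after the RefSeq start in hg38, are written 5′ to 3′ on the strand of the gene, and have runs of at least 3 G or 3 C in capitals. The NPRL3 window is chr16:138624-138923 on the minus strand, with 3 G runs and 7 C runs. The RHBDF1 window is chr16:72582-72881 on the minus strand, with 16 and 12, and its RefSeq start lies inside the GENCODE gene model.
NPRL3: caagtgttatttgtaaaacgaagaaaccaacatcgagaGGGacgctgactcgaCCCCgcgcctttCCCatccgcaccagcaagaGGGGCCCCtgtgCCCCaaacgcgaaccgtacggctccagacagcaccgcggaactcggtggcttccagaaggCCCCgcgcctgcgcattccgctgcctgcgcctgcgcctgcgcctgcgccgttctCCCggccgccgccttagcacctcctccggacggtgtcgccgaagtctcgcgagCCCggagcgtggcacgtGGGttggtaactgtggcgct
RHBDF1: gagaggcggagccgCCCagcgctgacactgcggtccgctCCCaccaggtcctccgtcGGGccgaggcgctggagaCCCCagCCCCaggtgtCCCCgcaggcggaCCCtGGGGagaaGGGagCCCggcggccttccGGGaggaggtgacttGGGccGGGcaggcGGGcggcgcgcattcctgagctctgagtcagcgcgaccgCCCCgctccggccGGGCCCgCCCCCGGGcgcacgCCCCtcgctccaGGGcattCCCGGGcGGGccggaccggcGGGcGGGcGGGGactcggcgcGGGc
The pattern searched was 4 runs of at least 3 G with 1 to 7 bases between runs, on either strand, a common text pattern for possible G4s. Neither window held it. It occurred in 24.0% of 27305 RefSeq windows of this length. Among called protein-coding genes with a window, 41.5% of 993 higher genes and 31.9% of 1039 lower genes held it, against 33.3% of 8121 genes not called. The median GC content of these windows was 66.7%, 63.0% and 65.3%, and its part in the difference was not tested.

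Across the genome, 3730 of 18220 genes tested were called, 1752 higher and 1978 lower in αRes3. Of these, 3113 had libraries that did not overlap between the lines, which held for 30.6% of all genes. Changes beyond 1 on the log2 scale were seen in 740 higher and 922 lower genes, and beyond 2 in 187 and 346. Called in the same direction against each αMut1 set alone were 2024 genes, 1003 higher and 1021 lower. Of the called genes, 39 moved by more than 1 on the log2 scale with reference and number set in both αRes1 and αRes2. These moves were in the direction of the αRes3 change. Such a gene is MRPL23, a mitochondrial ribosomal protein gene chosen for this after its values were seen. It was at 2.82 to 3.35 CPM in αRes3 and 65.3 to 88.4 in αMut1. In αRes1 it was at 89.8 CPM in numbers 1 to 4 and 3.56 in numbers 5 to 8.

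Of the 12 largest rises, 11 were genes below 1 CPM in every αMut1 library, the exception being SLC12A7. SYTL5, a synaptotagmin-like protein that binds RAB27A, was at 22.0, 24.0, 21.1 and 20.7 CPM in αRes3 and at most 0.347 in αMut1 (log2 change 6.88 ± 0.28, adjusted p = 4.21e-22). The carboxypeptidase-like genes CPVL and CPXM1 rose by 6.59 ± 0.33 and 6.16 ± 0.48. CPXM1 was at 27.8 CPM in αRes3, 13.1 in αRes4 and 0.381 in αMut1. SLC12A7, the potassium-chloride cotransporter KCC4, reached the highest level of the 12, 96.2 to 107 CPM against 1.56 to 5.24 in αMut1, and αRes4 had 53.8. SLC12A7 also moved with reference and number set, from 0.764 to 22.8 CPM in αRes1 and from 2.79 to 8.27 in αRes2. With the terms for reference and number set its log2 change was 4.28 ± 0.58. The homeobox gene HOXD4 was at 6.42 CPM against 0.0984. ITGBL1, an integrin β-like secreted protein, was at 19.1 CPM against 0.363, COBLL1 at 14.9 against 0.402, and MS4A4A, a macrophage surface protein, at 10.2 against 0.296. With those terms the log2 change of COBLL1 went from 5.18 to 2.25 and that of MS4A4A from 5.06 to 2.30. Those of HOXD4, DTNA and ZDHHC15 were larger, at 9.91, 7.14 and 6.84. These sizes are model estimates for genes below 1 CPM in αMut1. MAGEB16, DTNA (α-dystrobrevin), the palmitoyltransferase gene ZDHHC15 and the metallothionein MT4 completed the group, with log2 changes from 4.54 to 5.00. Of the 12, MT4 was higher in αRes4 (11.7 CPM) than in αRes3 (8.17), and in the other 11 αRes3 had the highest mean of the lines.

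The 12 largest falls were genes near 0 in αRes3. CYB5A, the electron carrier cytochrome b5, was at 0.252 to 0.312 CPM in αRes3 and 14.2 to 16.5 in αMut1 (log2 change -5.73 ± 0.18, adjusted p = 9.93e-26), and αRes4 was also low at 0.0724. EGFLAM fell by 6.23 ± 0.49 and ST8SIA4, a polysialyltransferase, by 5.48 ± 0.49. MAGEA1, a cancer-testis antigen, was at 1.25 to 2.18 CPM in αRes3 and 45.4 to 87.2 in αMut1. WAS, the actin regulator of blood cells, was at 0.671 to 0.758 CPM against 7.97 to 41.0. For several, the size of the fall depended on the αMut1 set: GNG2, a G protein γ subunit, was at 10.7 to 13.6 in αMut1 libraries 1 to 4 and 1.77 to 1.93 in libraries 5 to 7. AMBN, TESPA1, SSX3, CAPN6, TMEM176A and MYO16 were likewise higher in αMut1 numbers 1 to 4 than in 5 to 7, with log2 changes against the second set from -3.63 to -2.48. MYO16 also moved with reference and number set, from 7.98 to 3.41 CPM in αRes1 and from 2.01 to 0.628 in αRes2. With the terms for reference and number set, the log2 changes of the 12 falls ran from -13.60 to -4.01. That fit takes its reference term from αRes1 and αRes2, and the αRes3 levels are near 0. The sizes are therefore model estimates and not measured falls. GNG2, AMBN and TMEM176A had means of 0.0259, 0.0962 and 0.478 CPM in αWT, and 0.0664, 0.203 and 0.601 in αRes3.

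**Figure D3:**
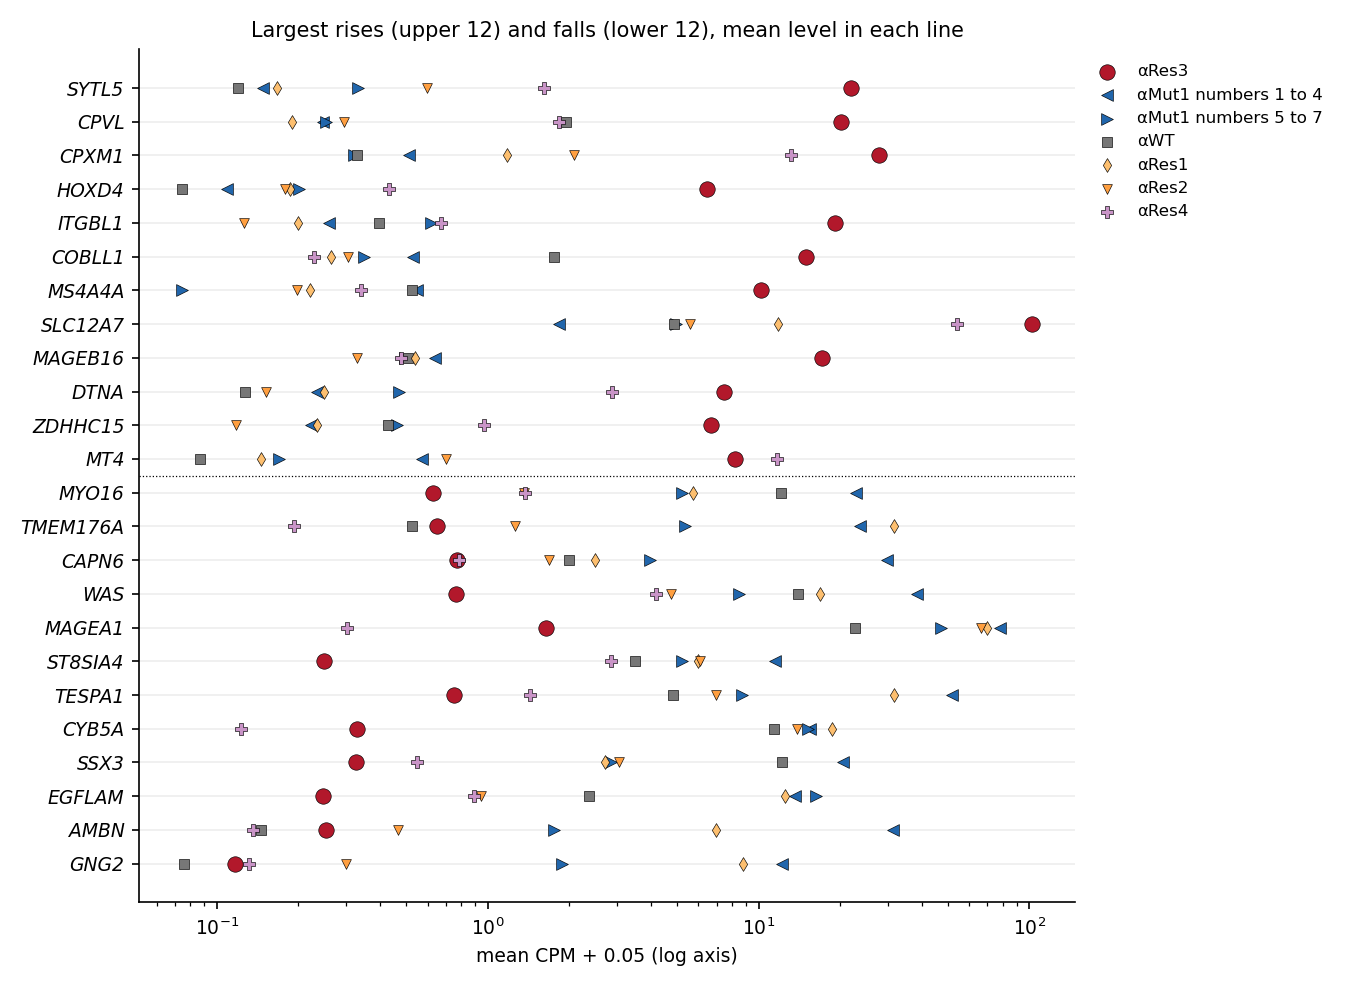
Mean CPM plus 0.05 (x axis, logarithmic) of the 12 largest rises and 12 largest falls (y axis) in αRes3, in both αMut1 sets and in αWT, αRes1, αRes2 and αRes4. αRes3 (large circles) stands right of the other lines for 11 of 12 rises; among falls, GNG2, AMBN and TMEM176A have means below 1 CPM in both αWT and αRes3.

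Called genes of heme synthesis and of the red cell membrane were mostly higher in αRes3. The shares over all genes tested, 9.62% higher and 10.9% lower, are the background for this list and those that follow. Of 16 heme synthesis genes, 4 were higher and 0 lower (median log2 change 0.13). The counts were 6 and 0 against αMut1 numbers 1 to 4, and 3 and 1 against numbers 5 to 7. ALAS2, the erythroid form of the rate-limiting enzyme, was at 693, 706, 725 and 741 CPM in αRes3. It was at 198 to 221 in αMut1 libraries 1 to 4 and 344 to 369.6 in libraries 5 to 7, and its log2 change was 1.38 ± 0.22, adjusted p = 3.98e-06. αRes4 was at 703 ± 29.7 (SD, n = 4) CPM and αWT at 121 ± 30.5 (SD, n = 8), so αRes3 and αRes4 had the highest means of the lines. With the terms for reference and number set, the ALAS2 change was 0.52 ± 0.29 and was not called. FECH, which inserts iron into the ring, was at 351 to 361 CPM against 157 to 215 (0.94 ± 0.07, adjusted p = 1.04e-13). Of 15 genes of iron handling and heme breakdown, 2 were higher, BLVRB (biliverdin reductase B, 0.63 ± 0.12) and FTH1 (ferritin heavy chain, 0.51 ± 0.12), and neither was called against αMut1 numbers 5 to 7.

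Of 32 red cell membrane genes, 12 were higher and 2 lower, with a median of 0.26. TSPAN33, a tetraspanin of erythroid progenitors, was at 11.6 to 12.6 CPM against 1.23 to 2.95 (2.67 ± 0.22, adjusted p = 1.18e-12). The glucose transporter SLC2A1 was at 542 to 569 against 241 to 335 CPM (0.96 ± 0.08, adjusted p = 3.26e-12). XK, the Kx blood group protein, and GYPC, glycophorin C, rose by 1.20 ± 0.11 and 0.71 ± 0.08. Against numbers 1 to 4 the counts were 15 and 2, and against numbers 5 to 7 they were 9 and 4.

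Among 24 erythroid transcription factor genes, 7 were higher and 2 lower. The counts were 10 and 2 against αMut1 numbers 1 to 4, and 4 and 1 against numbers 5 to 7. NFE2, the p45 subunit of NF-E2, averaged 551 ± 15.8 (SD, n = 4) CPM in αRes3 and 341 ± 37.7 (SD, n = 7) in αMut1 (0.69 ± 0.08, adjusted p = 2.73e-09). ZFPM1, the GATA1 cofactor FOG1, and FOXO3 rose by 1.02 ± 0.15 and 1.31 ± 0.15. SSBP2, a partner of LDB1, fell by 1.29 ± 0.13. GATA1 itself was not called, at 246 to 265 against 256 to 355 CPM (-0.24 ± 0.11, adjusted p = 0.0836). Of 21 regulators of globin switching, 3 were lower and 0 higher. SOX6, a repressor of embryonic globin genes, was at 3.52, 2.98, 3.35 and 2.94 CPM in αRes3. It was at 27.8 to 33.7 in αMut1 libraries 1 to 4 and 17.2 to 19.7 in libraries 5 to 7 (-3.01 ± 0.21, adjusted p = 1.5e-14), and the lines were far apart. LIN28B, a fetal-stage regulator, fell by 0.71 ± 0.10. Of 15 genes of EPO and KIT signaling, 2 were higher and 2 lower, close to the shares of 9.62% and 10.9% over all genes tested. CISH, a cytokine-signal inhibitor induced by STAT5, and JAK2 rose by 0.80 ± 0.10 and 0.61 ± 0.11, while PTPN6, a phosphatase that restrains these receptors, averaged 0.402 ± 0.121 (SD, n = 4) CPM against 2.99 ± 2.95 (SD, n = 7). For PTPN6 the log2 change was -0.63 against αMut1 numbers 1 to 4 and -3.94 against numbers 5 to 7.

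Of 17 genes of red cell cytosol proteins, 4 were higher and 2 lower. HEMGN, hemogen, was at 437 to 482 CPM against 133 to 241 (1.31 ± 0.14, adjusted p = 7.52e-10). AHSP, the chaperone that binds free α-globin, was at 1.16, 1.01, 1.46 and 1.68 CPM in αRes3 and at 1.24, 1.49, 1.20, 1.22, 8.02, 8.22 and 7.89 in αMut1. It was called lower (-1.68 ± 0.58, adjusted p = 0.0237), but this rests on αMut1 numbers 5 to 7. Against numbers 1 to 4 its log2 change was 0.02, and the αRes3 values lie on both sides of that set. Against numbers 5 to 7 it was -2.62. AHSP moved as much within αRes1, from 9.23 CPM in numbers 1 to 4 to 1.29 in numbers 5 to 8.

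Most markers of other blood cells were low or absent. Of 17 megakaryocyte markers, 8 were tested, 3 were higher and 2 lower. TUBB1 was at 132 to 143 CPM against 54.9 to 90.3, and ITGA2B, the platelet integrin αIIb, at 2.50 to 3.10 against 5.32 to 23.1. PF4 and GP1BB were at 0 in both lines, and the summed level of the list was 478 to 492.7 CPM in αRes3 and 327 to 384 in αMut1. Of 8 granulocyte and monocyte markers tested, 4 were lower and 1 higher, and the summed level of the list was 47.0 to 53.2 CPM in αRes3 and 101 to 289 in αMut1. LYZ, lysozyme, was at 12.5 to 14.4 CPM in αRes3 and 52.3 to 209.6 in αMut1 (-3.37 ± 0.50, adjusted p = 1.02e-06), and SPI1, the myeloid factor PU.1, at 5.45 to 7.49 against 16.9 to 19.5 (-1.49 ± 0.28, adjusted p = 4.23e-05). ELANE and CTSG were at 0 in αRes3. CEBPA rose to 1.09 from 0.284 CPM. Of 8 lymphoid markers tested, 5 were lower and 1 higher, against 1 and 1 with αMut1 numbers 5 to 7 alone. IL2RA was at 0.168 to 0.401 CPM against 0.426 to 6.81. The summed lymphoid level was 159.9 to 176 CPM in αRes3 and 187 to 227 in αMut1, and LCK, CD2, CD79B and MS4A1 were at 0 in αRes3. The part of these markers in the erythroid results was not tested. In bulk RNA, fewer cells of a type and less RNA per cell cannot be told apart.

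Among the lists with at least 8 tested members, the largest share of higher genes was that of ATF4 stress genes, which cells raise when amino acids run short or unfolded protein accumulates. Of 22 tested, 16 were higher and 0 lower, with a median log2 change of 0.56. The count was 14 against αMut1 numbers 1 to 4 and 13 against numbers 5 to 7. SLC7A5, an amino acid transporter, was at 559 to 572 CPM in αRes3 and 229 to 307 in αMut1 (1.09 ± 0.09, adjusted p = 1.95e-12). DDIT3, the factor CHOP, was at 63.2, 64.6, 61.7 and 57.5 CPM in αRes3 against 28.3 to 38.5 (0.91 ± 0.10, adjusted p = 1.58e-09). PPP1R15A, which restores translation by dephosphorylating eIF2α, and CEBPG, a dimer partner of ATF4, rose by 0.87 ± 0.11 and 0.71 ± 0.08. ATF4 itself was at 330.1 to 355 against 228 to 248 CPM (0.53 ± 0.10, adjusted p = 0.000105), close to the fold limit, and its call was lost in the fit of the 11 libraries alone and with no filter on low counts. In the other lines SLC7A5 averaged 205 to 382 CPM, and DDIT3 averaged 23.9 to 59.9, the last of these in αRes4, close to αRes3. Of 16 endoplasmic reticulum chaperones, 0 were called higher by edgeR and 2 lower, among the latter CANX, calnexin, at 589.5 to 599.9 against 939 to 1086 CPM (-0.75 ± 0.09, adjusted p = 6.77e-09). Of 20 cytosolic tRNA synthetases, 2 were higher (WARS1 0.66 ± 0.11, AARS1 0.58 ± 0.13) and 1 lower (RARS1 -0.63 ± 0.13).

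Of 29 genes of cholesterol and fatty acid synthesis, 9 were higher and 3 lower, and against αMut1 numbers 5 to 7 6 and 6. MSMO1, a sterol demethylation enzyme, and SREBF2, the master regulator of the pathway, rose by 1.00 ± 0.14 and 0.69 ± 0.10. Of 27 glycolysis and hypoxia genes, 4 were lower and 1 higher. Against αMut1 numbers 1 to 4 the counts were 4 lower and 5 higher, and against numbers 5 to 7 7 and 0. The glucose transporter SLC2A3 fell by 1.66 ± 0.23, opposite to SLC2A1, and the glycolytic enzymes PGK1 and PKM fell by 0.63 ± 0.09 and 0.59 ± 0.10. Of 20 cancer-testis antigens, most of them on the X chromosome, 7 were lower and 1 higher. MAGEB2 was at 7.38 to 8.89 CPM against 33.0 to 127, and MAGEC1 at 33.9 to 38.7 against 117 to 135. Of 6 metallothioneins tested, 3 were lower, MT1E, MT1F and MT1G, all at a few CPM at most. MT4, outside this list and named above, rose. Interferon-stimulated genes split, 5 higher and 3 lower of 23. The RNA sensor IFIH1 and the antiviral enzyme OAS3 rose by 1.52 ± 0.30 and 1.32 ± 0.23, while the membrane protein IFITM2 fell by 2.47 ± 0.34. Of 16 adhesion and surface protein genes, 5 were lower, led by PECAM1 at 1.17 to 2.35 against 11.03 to 17.8 CPM, and 2 were higher.

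Among all genes tested, 20.5% were called. The share was smaller in the lists of G4-binding proteins, RNA polymerase II, cohesin with Mediator, and SWI/SNF genes. In the lists of DNA methylation and Polycomb, cell cycle, histone, antigen presentation and piRNA genes it was not smaller. Of 25 genes for G4-binding and G4-unwinding proteins, 0 were higher and 2 lower (NONO -0.57 ± 0.07 and NPM1 -0.69 ± 0.11), with a median of -0.04. NONO lies on the X chromosome and NPM1 on chromosome 5, where lower genes were concentrated, as described below. Of 12 RNA polymerase II subunits, 1 was lower and 0 higher. Among 35 genes for cohesin, CTCF and Mediator, 1 was higher (MED16, 0.53 ± 0.13) and 3 were lower, among them MED12 (-0.61 ± 0.11) and MED14 (-0.59 ± 0.12). Of 19 SWI/SNF and acetyltransferase genes, 1 was lower, SMARCA2 (-0.65 ± 0.11). Of 23 genes of DNA methylation and Polycomb, 3 were higher, among them DNMT3A (0.79 ± 0.08) and TET2 (0.59 ± 0.11), and 2 lower, RBBP7 (-0.59 ± 0.05) and EED (-0.52 ± 0.09). Cytosolic ribosomal proteins had 0 of 52 higher and 1 lower, and mitochondrially encoded genes had 0 of 13 called in either direction by edgeR. Of 29 cell cycle genes, 3 were higher, including MKI67 (0.66 ± 0.14), and 4 lower, including CCNB1 (-0.66 ± 0.08) and CCNE1 (-0.63 ± 0.09). Of 21 replication-dependent histone genes, 5 were higher and 1 lower, at low levels in a poly(A) library. In the antigen presentation list 1 was higher and 2 lower of 10, in the apoptosis list 1 higher and 0 lower of 19 (BBC3, which encodes PUMA, 1.14 ± 0.15), in the piRNA list 1 and 1 of 6, and of 4 long nuclear RNAs 0 in either direction.

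**Figure D4:**
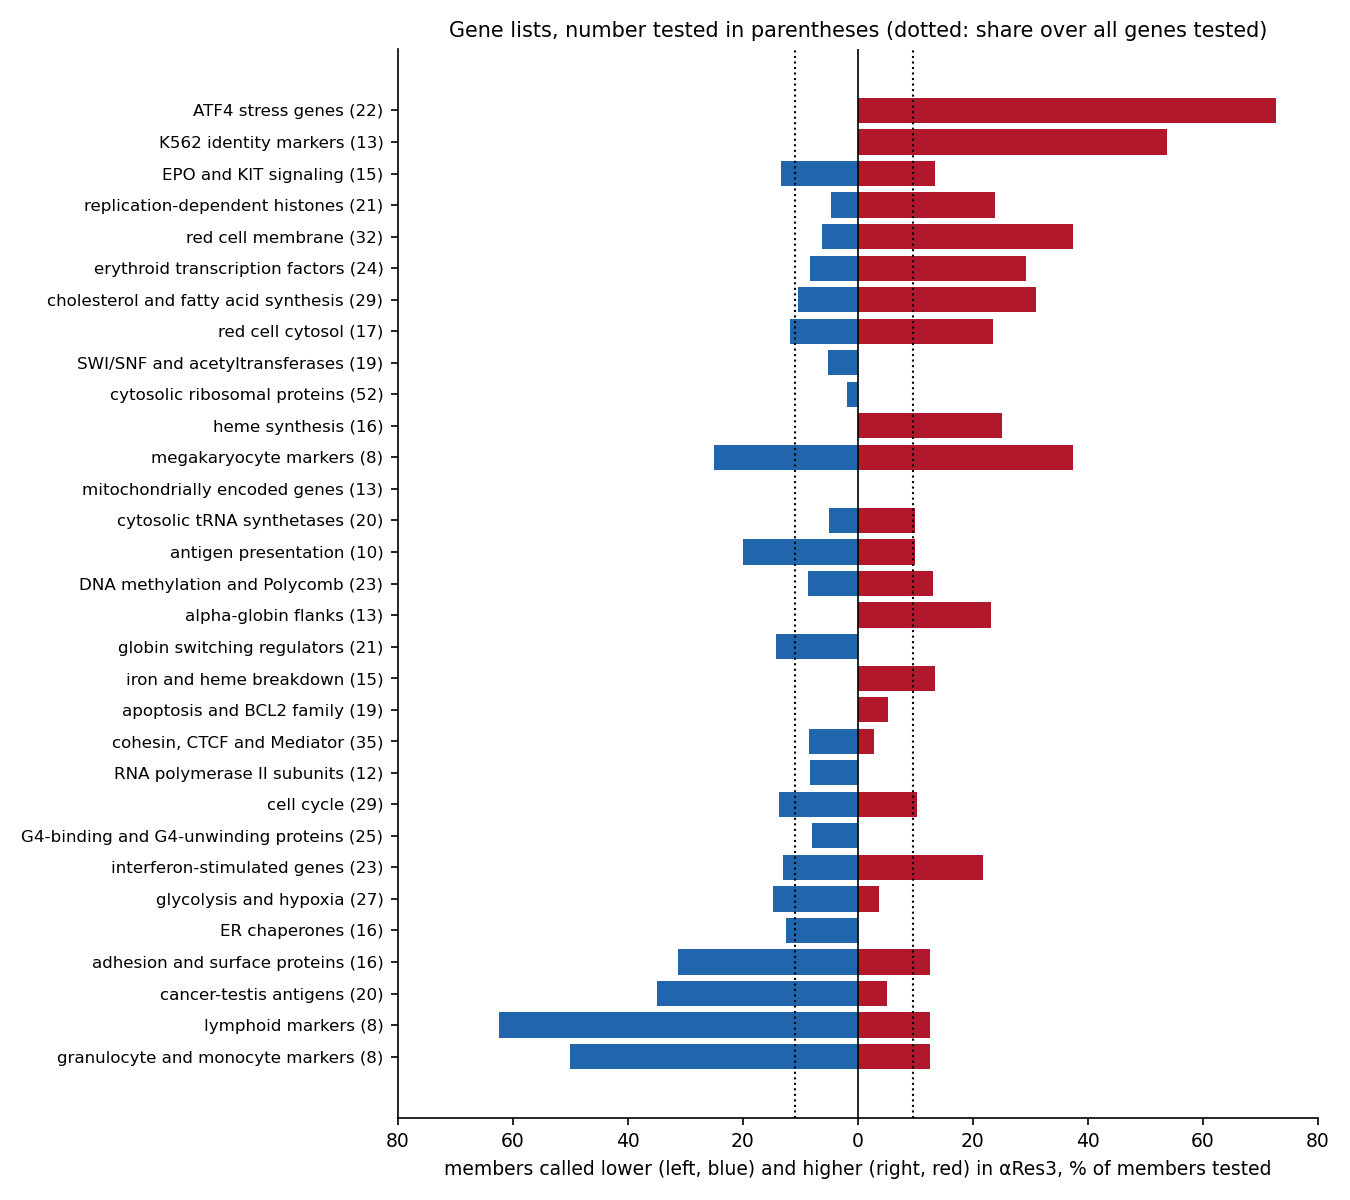
Members called higher (right) and lower (left) in αRes3 as a percentage of the members tested (x axis), for each list with at least 8 tested members (y axis, number tested in parentheses), ordered by median log2 change. Dotted lines mark the share over all genes, 9.62% higher and 10.9% lower; 16 of 22 ATF4 stress genes were higher, and 4 of 8 granulocyte and monocyte markers lower.

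Lower genes were concentrated on chromosomes 5, 8 and X. These 3 hold 12.1% of the genes tested and 33.0% of those called lower (653 of 1978). On the X chromosome 32.9% of 733 genes were lower and 4.77% higher, with a median log2 change of -0.38 (-0.31 against αMut1 numbers 1 to 4 and -0.35 against numbers 5 to 7). On chromosome 5 it was 29.0% and 8.77% of 821 genes (median -0.22), and on chromosome 8 27.02% and 6.52% of 644 (median -0.24). Of 284 windows of 10 Mb with at least 20 tested genes, 27 had a median below -0.3, and 26 of them lie on these chromosomes. The other one, of 20 genes, is on chromosome 21, from 20 to 30 Mb. The middle of all window medians was -0.02. Off these chromosomes, 1603 genes were higher and 1325 lower, with a median of 0.02. Among them, chromosome 21 had a median of -0.21 over 210 genes, with 17.1% lower and 9.05% higher. Position was not tested, since neighbouring genes are not independent. Several lower list members named above lie on these chromosomes. They are NONO, MED12, MED14, RBBP7 and PGK1 on the X chromosome, and NPM1, CANX, RARS1, CCNB1 and SSBP2 on chromosome 5. The part of position in their falls was not tested.

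The fall on chromosome 5 was strongest over a stretch in its middle, and a smaller one was seen near its end. From 0 to 50 Mb the median over 159 genes was 0.19. From 50 to 130 Mb it was -0.53 over 308 genes, of which 148 were lower and 6 higher. All 8 windows of this stretch had medians below -0.3. The window from 100 to 110 Mb was the lowest of the genome, at -1.41, with 16 of 24 genes lower. In the next stretch, the window from 130 to 140 Mb had a median of 0.22, with 26 of 92 genes higher. Nearer the end of the chromosome, the windows from 160 to 170, 170 to 180 and 180 to 190 Mb had medians of -0.42, -0.39 and -0.38, with 11 of 23, 29 of 93 and 7 of 21 genes lower. Genes from 50 to 130 Mb in single libraries, relative to the αMut1 mean, had medians of -0.60 to -0.55 in αRes3. They were at -0.12 to 0.12 in αMut1, -0.09 to 0.26 in αWT and -0.17 to -0.12 in αRes4, so the 4 αRes3 libraries stood apart from every other line.

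Single genes of chromosome 5 show the size of these differences. Of these, PPIP5K2, PJA2 and PITX1 were chosen after their values were seen. The lowest levels were those of αRes3 in each of the 3 genes from the falling stretch. PPIP5K2, an inositol pyrophosphate kinase (chr5:103120149-103212799, plus strand), was at 42.7, 44.02, 41.5 and 42.1 CPM in αRes3 and 177 to 280.4 in αMut1 (-2.45 ± 0.17, adjusted p = 8e-15). PJA2, a ubiquitin ligase (chr5:109334713-109409974, minus strand), was at 54.8, 54.6, 53.6 and 54.7 CPM against 155 to 206 (-1.73 ± 0.11, adjusted p = 1.44e-15). Both kept higher means in every other line, with the lowest in αRes4 (136 and 106 CPM). C5orf63 (chr5:127045235-127073506, minus strand) had 1 read over the 4 αRes3 libraries and 4.11 to 5.79 CPM in αMut1, and its means were 3.77 to 7.54 CPM in the other lines. In the neighbouring stretch, PITX1, a homeobox factor of limb and pituitary development (chr5:135027734-135034813, minus strand), was at 379, 418, 418 and 388 CPM in αRes3. It was at 70.7 to 79.7 in αMut1 libraries 1 to 4 and 190.3 to 216 in libraries 5 to 7, and the means of αWT and the other αRes lines ran from 134 to 143 CPM. Its log2 change was 1.60 ± 0.21, adjusted p = 8.67e-08.

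The promoter window of PITX1, chr5:135034179-135034478 on the minus strand, is shown because PITX1 rose and the window holds the pattern of 4 G runs on both strands, with 14 G runs and 12 C runs in capitals.
PITX1: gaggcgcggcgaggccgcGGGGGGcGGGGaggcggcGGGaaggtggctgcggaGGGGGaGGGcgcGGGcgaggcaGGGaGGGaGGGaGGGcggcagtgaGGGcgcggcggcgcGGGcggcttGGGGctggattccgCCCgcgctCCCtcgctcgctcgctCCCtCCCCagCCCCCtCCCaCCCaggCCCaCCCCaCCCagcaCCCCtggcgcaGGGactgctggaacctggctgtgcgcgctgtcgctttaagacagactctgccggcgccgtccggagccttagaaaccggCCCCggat
A match is a property of the letters and says nothing of folding.

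On the X chromosome the windows from 10 to 20 and from 20 to 30 Mb had the lowest medians, -0.79 and -0.75, with 34 of 53 and 15 of 24 genes lower. Both were also low against each αMut1 set (-0.75 and -0.81 with numbers 1 to 4, -0.58 and -0.69 with numbers 5 to 7). In other stretches of the X chromosome the fall depended on the set. From 110 to 160 Mb the median was -0.001 against numbers 1 to 4 and -0.72 against numbers 5 to 7. The window from 150 to 160 Mb was at 0.14 and -0.88, that from 140 to 150 Mb at 0.58 and -0.44, and that from 100 to 110 Mb, the other way, at -1.08 and -0.06. Over 467 X-linked genes at 5 CPM or more in αMut1, library medians relative to αMut1 were -0.36 to -0.35 in αRes3 and -0.30 to -0.19 in αRes4, and 0.05 to 0.15 in αRes2. Pseudoautosomal genes, which can be compared only among libraries of the reference that counts them, gave 602 to 632 CPM in αRes3. They gave 856 to 926 in αRes4, 1169.8 to 1231 in αRes2 and 1247 to 1294 in αRes1, so αRes3 was the lowest of the 4 lines without overlap. Not all X-linked genes fell: SYTL5, ALAS2 and XK, named above, rose. DNA copy number was not measured in these data. The first 10 Mb of chromosome 16, which hold the α-globin cluster, had a median of 0.12 over 193 genes, with 0.35 against αMut1 numbers 1 to 4 and -0.11 against numbers 5 to 7. Relative to αWT, the median log2 change of these genes was -0.58 in αMut1 and -0.48 in αRes3.

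αRes3 was also compared with the other rescue clones, in a contrast that gives αMut1 no weight, although the αMut1 libraries share the fit. It differed in 3805 genes, 20.9% of those tested, 1858 higher and 1947 lower than the mean of αRes1, αRes2 and αRes4. With only libraries of the reference that αRes3 has, the count was 3645. HBA1 was higher by 0.64 ± 0.17, adjusted p = 0.00302, and with same-reference libraries by 0.46 ± 0.13, adjusted p = 0.00482, which is under the fold limit. HBZ was higher by 0.87 ± 0.19, adjusted p = 0.000264, and with same-reference libraries by 0.65 ± 0.10. NPRL3 was higher by 0.92 ± 0.12, adjusted p = 1.17e-07, and with same-reference libraries by 0.72 ± 0.05. HBE1 was higher by 0.75 ± 0.19, adjusted p = 0.00156. HBG1 and HBG2 were not called (0.19 ± 0.15, adjusted p = 0.35 and 0.16 ± 0.14, adjusted p = 0.383), and HBB was lower by 2.24 ± 0.48 on the log2 scale.

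The 6 largest rises against the other clones were ITGBL1, POF1B, COBLL1, MS4A4A, SLCO4C1 and SYTL5, with log2 differences from 5.59 to 6.47. POF1B, an actin-binding protein, was at 12.4 CPM in αRes3 and 0.990 or less in the other rescue clones. SLCO4C1, an organic anion transporter, was at 14.1 against 0.734 or less. The 6 largest falls were C5orf63, CLCN4, ST8SIA4, IL18R1, IL18RAP and OSMR, from -3.48 to -8.12. IL18R1 and IL18RAP, neighbouring genes on chromosome 2 that encode both chains of the interleukin-18 receptor, were at 1.02 and 0.853 CPM in αRes3. Their means in the other rescue clones ran from 11.2 to 13.3 and from 6.36 to 14.4 CPM. OSMR, the oncostatin M receptor, was at 1.04 CPM in αRes3 and 10.6 to 12.9 in these clones, and at 1.72 in αWT. CLCN4, a chloride-proton exchanger on the X chromosome, was at 0.0820 against 3.02 to 7.14 CPM. Against these clones 16 of 22 ATF4 stress genes were higher and 0 lower, and the median over all genes was -0.01.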

How the data were processed

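RNA-seq was made from poly(A) RNA of K562 lines with a directional library kit and read as paired ends. The authors trimmed reads with cutadapt, aligned them to hg38 with bwa mem, processed alignments with SAMtools 1.15.1 and Picard, and deposited raw counts per gene from featureCounts with GENCODE annotation. Whether counting used strand is not given in the sources used here.

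From these counts, 62696 genes in each of 43 α-series libraries were joined, and 62625 matched GENCODE 44. The 32 genes counted under 1 alignment reference only were left out, where libraries with and without pseudoautosomal counts were taken as 2 references. Genes with a mean of at least 10 counts (18220) were fitted with edgeR 4.0.16 (limma 3.58.1, R 4.3.3) by TMM scaling and quasi-likelihood tests over 7 lines, with the biological coefficient of variation at 19.9%. DESeq2 1.42.0 was an alternative. In data simulated for αRes3 against αMut1 over 18220 genes, 75% of genes changed by log2 1 and 48% of those changed by 0.7 were called. Apart from the changed genes, the simulation gave all lines the same mean per gene. It held no αMut1 sets and no difference of reference, so these shares do not cover such differences. Precision depends on the depth, 12007645 to 30174241 counts a library, and on the numbers of libraries. It also depends on the spread between libraries, including that between the αMut1 sets.

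The genes named were the globin genes and their neighbours, up to 4 members of each of 36 lists, and AHSP. The 12 largest rises and 12 largest falls were named too, with the 6 of each against the other αRes lines. All of these are called protein-coding genes of at least 5 CPM whose libraries do not overlap in the comparison concerned. Only the 12 of each also needed 1 direction against both αMut1 sets. GATA1, ATF4, ASNS, CHAC1, MRPL23, PITX1, PPIP5K2, PJA2, FER and PAM were added after their values were seen. The members, lists and named genes were chosen with earlier results of these data known. Alternatives were another scaling, no count filter, no fold limit, a replicate block, libraries left out and terms for the reference. The 19 β-series libraries were not used here, and genes of chromosome 8 and some other items are not reported here by name.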

Additional observations from a re-analysis of the deposited data

Results flagged for a closer look

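In 11 of 255 groups of single-gene values, 1 library stood far from the others by Dixon's test, and chance alone gives about 1 in 20, here 12.8. HBA1 was at 446 CPM in αRes3 replicate 4, against a median of 335 in the other αRes3 libraries. In the same library COBLL1 was at 16.2 (median 14.5) and the asparagine synthetase gene ASNS, named after its values were seen, at 5.20 (3.52), while ITGBL1 was at 17.9 (19.5). In αRes3 replicate 3, HBQ1 was at 16.6 CPM (16.0), POLR3K at 82.5 (79.6) and RBBP7 at 149 (154). In αRes3 replicate 1, BLVRB was at 465.5 CPM (502), JAK2 at 70.0 (78.8) and SLCO4C1 at 17.3 (13.2). In αMut1 replicate 7, the histone gene H2AC13 was at 11.2 CPM (13.2).

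For 21 genes αRes3 differed from the mean of αRes1, αRes2 and αRes4, on the log2 scale, in the edgeR contrast between these lines given above. The change from αMut1 is common to both sides and cancels out, so this is not a second test. Near the α-globin cluster these were HBZ (0.87), HBA2 (0.72), HBA1 (0.64), NPRL3 (0.92), RHBDF1 (0.86) and FAM234A (0.69). Elsewhere in the globin system they were HBE1 (0.75), HBB (-2.24) and AHSP (-2.06). The other 6 with higher values in αRes3 were ITGBL1 (6.47), POF1B (6.42), COBLL1 (6.19), MS4A4A (5.71), SLCO4C1 (5.69) and SYTL5 (5.59). The 6 with lower values were C5orf63 (-8.12), CLCN4 (-5.68), ST8SIA4 (-4.55), IL18R1 (-3.58), IL18RAP (-3.51) and OSMR (-3.48). Both groups of 6 were chosen as the largest differences in this same contrast, so their place here was fixed by that choice.

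Pseudoautosomal genes, which enter no test, had a median summed level of 628 CPM in αRes3 and 0 in the αMut1 libraries.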

How the results depend on the processing

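With terms for alignment reference and number set, chosen after seeing the data, 6517 genes were called (3178 higher, 3339 lower) and 45 windows fell below -0.3. Without the fold limit 5700 genes passed (2874 higher), and 2024 were called against both αMut1 sets (1003 higher, 1021 lower). DESeq2 called 3770 genes, and αMut1 numbers 1 to 4 or 5 to 7 alone gave 4886 and 3911. Against the other αRes lines, 2811 genes were higher with no filter on low counts, and the HBA1 difference was 0.46 with same-reference libraries, under the fold limit. With the replicate number as a replicate block 5025 genes were called and the HBA1 change was 1.61. Same-numbered αRes3 and αMut1 samples had correlations of deviations from -0.0923 to 0.0763, so the numbers do not pair the samples.

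Leaving out 1 library gave 3307 to 3834 changed genes (1559 to 1804 higher, 1732 to 2089 lower) and 3347 to 3427 against the other αRes lines (1659 to 1726 higher, 1688 to 1702 lower). The HBA1 change ran from 1.24 to 1.43, the HBA1 difference from the other αRes lines from 0.52 to 0.69, the windows from 27 to 30, and 7 globin genes passed the permutation test each time. Of these, 6 are at the smallest p that the test allows and the other is HBB, which was lower, so this count says nothing about stability. Over all alternatives, 2724 values of single genes kept direction and side of the threshold, 108 lost the call, 12 gained it and 38 changed sign.

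Calls of named genes were lost with the reference and set terms for FAM234A, ALAS2, FTH1, CISH, CCNB1, CCNE1, MED12, EED, MAGEB2, MT1E, MT1G, WARS1 and SLCO4C1, against αMut1 numbers 5 to 7 for HBG1, HBG2, RHBDF1, FAM234A, BLVRB, FTH1, JAK2, IL2RA, SREBF2, DHCR7, MKI67, MED16, RARS1, AARS1 and ASNS, and against numbers 1 to 4 for PTPN6, MED12, EED and WARS1. Leaving out 1 library ended the call of AHSP, HBG2, FAM234A, FTH1, MED16, EED or ASNS in at least 1 case each. The call was also lost under the replicate block for AHSP and MED12, with no filter on low counts for HBG2, FAM234A, FTH1, MED16 and ATF4, and in the fit of the 11 libraries alone for these 5 and AHSP.

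Sign changes with the reference and set terms were HBB 0.68, POLR3K 0.62, SNRNP25 0.63, LUC7L 0.15, MRPL28 0.39, AHSP 0.99, PTPN6 0.080, CD9 -0.019, DNAJB9 0.12, H2AC13 -0.0072 and MRPL23 0.15. With αMut1 numbers 1 to 4 alone they were HBD 0.075, POLR3K 0.18, SNRNP25 0.18, MRPL28 0.27 and AHSP 0.021, and with numbers 5 to 7 alone HBQ1 -0.054, MPG -0.31, AXIN1 -0.069, NME4 -0.33 and DECR2 -0.24. Under the replicate block they were HBD 0.29, SNRNP25 0.055 and MRPL28 0.070, and in the fit of the 11 libraries alone DECR2 -0.0025. Leaving out 1 library gave -0.084 to 0.032 for SNRNP25, -0.064 to 0.059 for MRPL28, -0.014 to 0.12 for NME4 and -0.029 to 0.10 for DECR2. The cause was not tested for any of these. αRes3 is 1 clone, its libraries share 1 reference, and αMut1 libraries fall into 2 sets, and no comparison here separates these from the edit.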

Other observations

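Further members of the lists also differed. CXCR4, the receptor that retains progenitors in the marrow, was at 1.46 to 1.84 CPM in αRes3 and 0.237 to 0.884 in αMut1 (log2 change 1.41 ± 0.27, adjusted p = 7.67e-05). CD82, a tetraspanin, was at 4.50 to 5.38 against 8.98 to 12.3 CPM (-1.11 ± 0.20, adjusted p = 3.48e-05). CHAC1, a glutathione-degrading enzyme downstream of ATF4 and named after its values were seen, was at 12.9 to 13.8 against 5.01 to 7.12 CPM (1.20 ± 0.32, adjusted p = 0.00323). DDX53, a cancer-testis antigen on the X chromosome, fell by 2.34 ± 0.24. DHCR7, the last enzyme of cholesterol synthesis, rose by 0.74 ± 0.12.

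On chromosome 5, FER and PAM, also named after their values were seen, lie in the stretch with the lowest medians. FER, a tyrosine kinase, was at 19.3 to 21.1 CPM in αRes3 and 50.5 to 74.3 in αMut1 (log2 change -1.63 ± 0.16, adjusted p = 5.57e-11). PAM, a peptide-amidating enzyme, was at 0.503 to 0.922 CPM against 1.87 to 8.49 (-2.96 ± 0.44, adjusted p = 1.05e-06).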
